A study of Homo sapiens with 9 samples.

Results

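The comparison was between 786-M1A, a metastatic derivative, and its parental line 786-O, across 12139 of the 28395 genes counted, namely those that averaged 50 counts or more across both lines' 6 libraries. 786-O is a human clear cell renal cell carcinoma (ccRCC) line from a primary tumor, and 786-M1A was recovered from lung metastases after 786-O cells had been injected in vivo. Each line was sequenced as 3 cultures (replicates 1 to 3), beside 3 cultures of HK2 cells, which come from the proximal tubule of normal kidney. None was treated, and all 9 cultures had been kept in Plasmax, a medium modelled on human serum. The metastatic state is represented by a single derivative of a single parental line, so that differences tied to metastasis and differences that arise between any sublines cannot be told apart. P-values measure the spread between cultures of a line.

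The matrix around epithelial cells is made of basement membrane collagens and laminins, fibrillar collagens, and glycoproteins such as fibronectin, and cells read it through integrins and other receptors. Tumor cells that leave the kidney meet another matrix, other growth factors and other neighbours. ccRCC typically lacks a working *VHL*, the ubiquitin ligase component that marks hypoxia-inducible factors (HIF) for destruction, so that genes such as *VEGFA* and *CXCR4* can be transcribed in the presence of oxygen. *CXCR4*, the receptor of the chemokine CXCL12, is a known marker of metastatic ccRCC.

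The 6 libraries held 37286537 to 44432699 counts on genes, and the correlation of log2 CPM (the counts of a gene scaled to a library of fixed size with edgeR's TMM factors) was 0.997 to 0.998 within the lines and 0.956 to 0.959 between them. The biological coefficient of variation between cultures was 3.93%. Both lines expressed the kidney transcription factor *PAX8* and the simple-epithelium keratins *KRT8* and *KRT18*, while *EMX2* had 0 counts. Of the leukocyte markers, *PTPRC*, *CD3E* and *MS4A1* had 0 counts in every library. The 9 markers together summed to 3.99 to 5.11 CPM in 786-M1A and 7.31 to 8.16 CPM in 786-O. Most of this was *CSF1R*, at 4.16 CPM in 786-M1A and 7.21 CPM in 786-O. The 6 endothelial markers summed to 0.984 to 1.29 CPM in 786-M1A and 0.185 to 0.449 CPM in 786-O, with *KDR* at 0.939 and 0.187 CPM. The 9 fibroblast markers summed to 300.4 to 304.5 CPM in 786-M1A and 281 to 350.0 CPM in 786-O, but *PDGFRA* was at 0 and *COL1A2* and *DCN* had at most 4 counts in every library of either line, and the sums consisted mainly of *PDGFRB* in 786-M1A and *COL1A1* in 786-O. In bulk RNA, fewer cells with a transcript and less of it per cell cannot be told apart.

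Small differences were widespread and large ones were few (plot of all genes by level). Of the 12139 genes, 6889 (56.8%) passed an adjusted p-value of 0.05 in edgeR's quasi-likelihood test, 3456 of them higher (28.5%) and 3433 lower (28.3%) in 786-M1A. The lower and upper quartiles of the log2 fold change were -0.18 and 0.16. Differences reached 2-fold for 225 higher genes (1.85%) and 421 lower genes (3.47%), 5.32% of the genes tested in both directions together. The libraries of the lines did not overlap for 62.4% of the genes, so that a lack of overlap is common here. The smallest p-value of an exact two-sided permutation test is 0.1 with 3 cultures per line, and the adjusted p-values below are those of edgeR over all genes tested. Without a filter on low counts the 2-fold genes numbered 470 higher and 1127 lower.

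**Figure D1:**
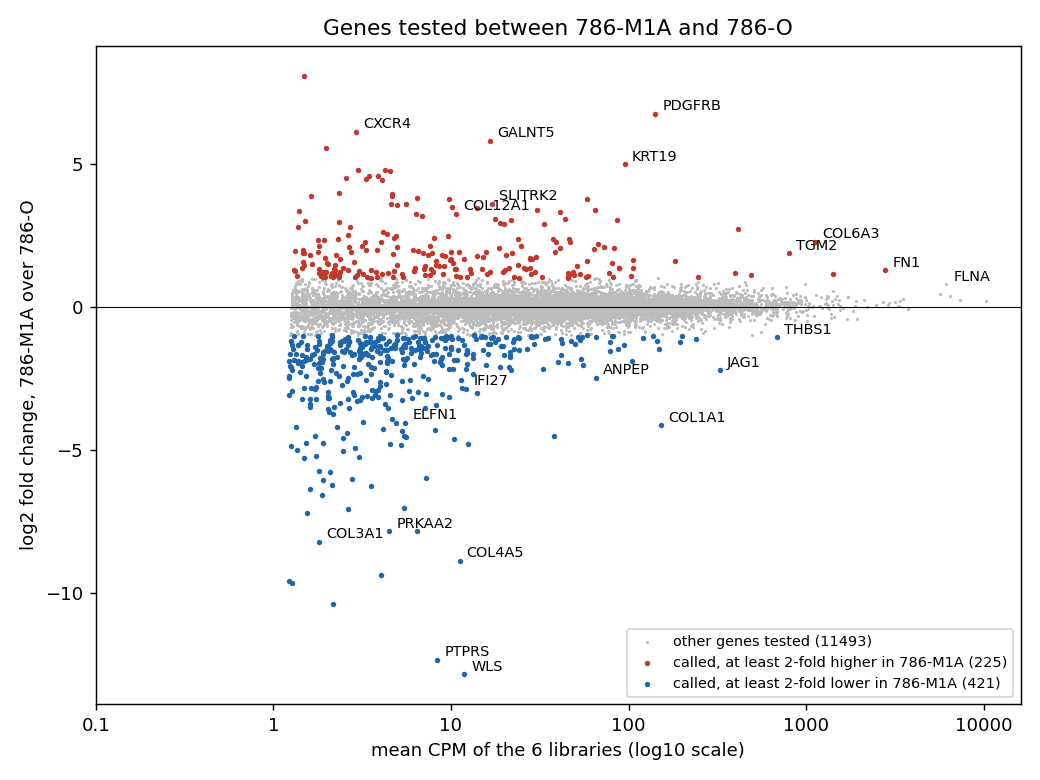
Log2 fold change of 786-M1A over 786-O against the mean CPM of the 6 libraries, on a log scale, for the 12139 genes tested. Genes called and at least 2-fold higher (225) are red and at least 2-fold lower (421) blue, and the size of the lowest values, such as *WLS*, depends on the prior count because 786-M1A had 0 reads.

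The most extreme losses were of genes that were read in every 786-O library and absent, or nearly absent, from 786-M1A. Of the genes tested, 18 had at least 50 counts in each 786-O library and at most 3 in each 786-M1A library. A gene nearly absent from either line passed the filter of 50 counts on average only through the other line. Less abundant genes of this kind were therefore not counted, in either direction. All 18 are protein-coding. The reverse pattern was found for 1 gene, NCBI gene 105369311, which has no symbol in the annotation used. It had 67, 154 and 119 counts in 786-M1A and 0, 1 and 0 in 786-O, and its fitted log2 fold change of 8.07, the largest rise of any gene tested, depends on the prior count. Among the 18 are *WLS*, which carries Wnt ligands to the cell surface for secretion, *COL4A5*, a chain of basement membrane type IV collagen, *PTPRS*, a receptor-type tyrosine phosphatase that binds proteoglycans, *AJAP1*, a protein of adherens junctions, and *PRKAA2*, a catalytic subunit of the energy sensor AMPK.

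The sequences just before the start sites of the 4 most abundant of these genes with a RefSeq entry are shown because the study asked whether promoter methylation accompanies the silencing of a gene in these lines, and DNA methylation falls on CG dinucleotides, which are in capitals here. Each is the 250 bases before the start (GRCh38.p14, 5′ to 3′ on the gene's strand), at chr1:68232524-68232773, minus strand, for *WLS*, chrX:108439588-108439837, plus strand, for *COL4A5*, chr19:5340813-5341062, minus strand, for *PTPRS*, and chr1:4654359-4654608, plus strand, for *AJAP1*.
WLS: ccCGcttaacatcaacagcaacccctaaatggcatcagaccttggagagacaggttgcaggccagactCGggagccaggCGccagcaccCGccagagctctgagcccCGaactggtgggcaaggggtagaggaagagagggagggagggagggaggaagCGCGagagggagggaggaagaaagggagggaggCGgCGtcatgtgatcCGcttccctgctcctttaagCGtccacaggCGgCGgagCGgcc
COL4A5: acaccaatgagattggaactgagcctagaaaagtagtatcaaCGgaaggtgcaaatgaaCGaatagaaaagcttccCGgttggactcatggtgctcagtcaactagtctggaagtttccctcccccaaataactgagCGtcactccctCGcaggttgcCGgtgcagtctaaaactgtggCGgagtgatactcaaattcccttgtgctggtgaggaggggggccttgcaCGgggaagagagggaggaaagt
PTPRS: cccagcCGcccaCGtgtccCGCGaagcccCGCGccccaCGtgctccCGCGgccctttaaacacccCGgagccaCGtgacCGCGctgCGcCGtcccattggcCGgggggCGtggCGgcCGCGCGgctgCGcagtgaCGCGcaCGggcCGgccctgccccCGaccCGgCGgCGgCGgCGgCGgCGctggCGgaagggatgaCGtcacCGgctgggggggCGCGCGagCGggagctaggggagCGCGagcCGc
AJAP1: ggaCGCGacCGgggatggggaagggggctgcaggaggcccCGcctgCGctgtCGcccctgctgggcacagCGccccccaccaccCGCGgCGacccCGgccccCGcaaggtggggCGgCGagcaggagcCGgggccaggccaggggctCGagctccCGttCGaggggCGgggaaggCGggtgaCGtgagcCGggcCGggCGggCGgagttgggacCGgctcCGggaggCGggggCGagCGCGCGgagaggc
They hold 14, 8, 44 and 32 CG dinucleotides in the same order, and the median over the 9776 tested genes with a RefSeq promoter was 21. Across the 13 of the 18 genes with an entry, the count ran from 1 in *AFF2* and *WDR72* to 44 in *PTPRS*. A comparison of these genes with the rest is void, because under 80% of the 18 and of the 2-fold genes had an entry (13 of 18, 169 of 225 and 326 of 421). Methylation was not analysed here.

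*WLS* had 1055, 868 and 1037 counts in the 786-O libraries and 0 in each 786-M1A library, which makes it at least 287-fold lower against a floor of 3 counts per library. *PTPRS* had 751, 639 and 702 counts against 0 (at least 203-fold lower), and *ENPP4*, an ectonucleotidase, had 173, 162 and 208 against 0 (at least 52.8-fold). *JAKMIP2* and *FAM89A* were also at 0 in 786-M1A, at least 31.0-fold and 29.9-fold lower. A read-out of 0 in 3 libraries of this depth sets an upper limit, and does not show that no transcript was made.

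*COL4A5* had 935, 864 and 985 counts in 786-O and 2, 1 and 2 in 786-M1A. *AJAP1* had 589, 479 and 533 against 3, 1 and 2, and *PRKAA2* 345, 346 and 427 against 0, 3 and 1. The other genes with a few reads in 786-M1A included *TEX15*, a meiotic gene, *OSBPL1A*, a sterol-binding protein, *UNC13C*, a factor of synaptic vesicle priming, *TMEM98*, *ICA1*, *COL3A1*, the chain of fibrillar collagen III, *WDR72*, *SFMBT2* and *AFF2*. In HK2 cells 10 of the 18 had at least 50 counts in every library and 5 had at most 3 in every library. *WLS* and *PTPRS* were among the former, at 93.1 and 138 CPM, and *AJAP1* and *JAKMIP2*, at 0, were among the latter.

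**Figure D2:**
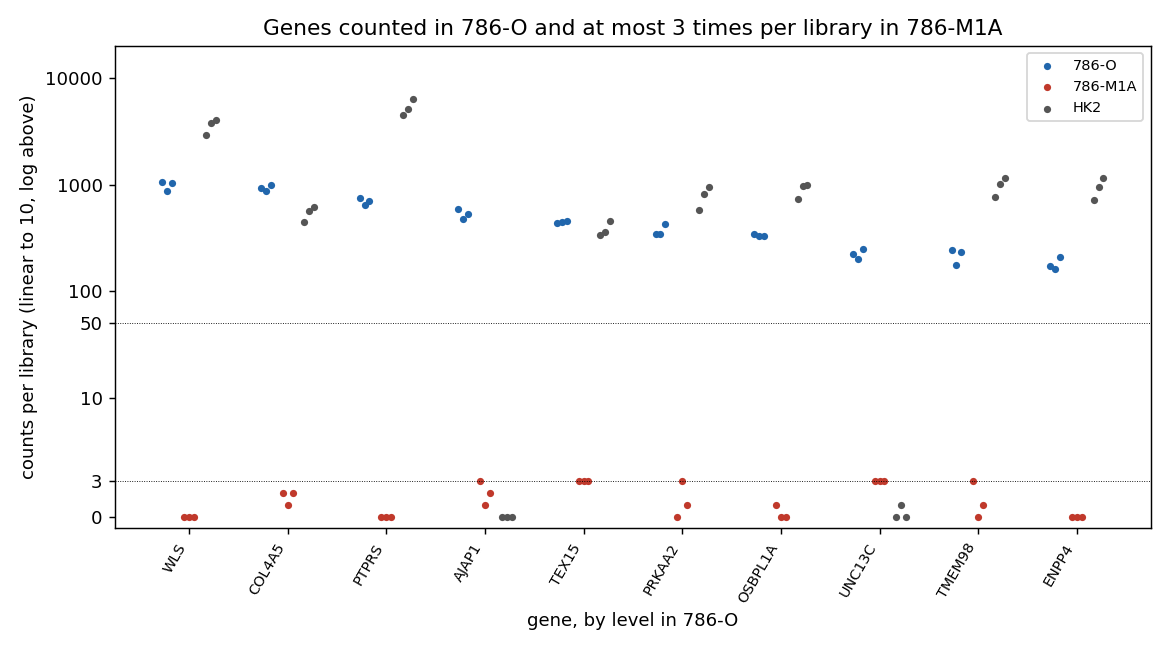
Counts per library of the 10 most abundant of the 18 genes read in 786-O and nearly absent from 786-M1A, on an axis linear to 10 and logarithmic above, with the libraries of the 3 lines as separate points. Dotted lines mark 3 and 50 counts, and 8 of the 10 genes lie above 50 in every HK2 library.

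Pathways and families were described by 95 lists of genes, of which 92 had at least 5 members tested. Their median log2 fold changes ran from -0.71 to 0.89, and 50 were below 0 and 42 above. Lists with more members 2-fold lower than 2-fold higher numbered 47, and 20 had the reverse. Over all genes tested, 28.5% were called higher and 28.3% lower, and 1.85% and 3.47% were at least 2-fold higher and lower. A member with few reads in a line could pass the filter only through the other line, so list counts depend partly on the filter. In all, 251 of the 646 genes with a 2-fold difference belonged to a list and 395 to none. The lists with the largest shares of 2-fold lower or of 2-fold higher members, 8 of each, included lists of the matrix, adhesion, receptors, chemokines, HIF targets and kidney identity (plot of list members).

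**Figure D3:**
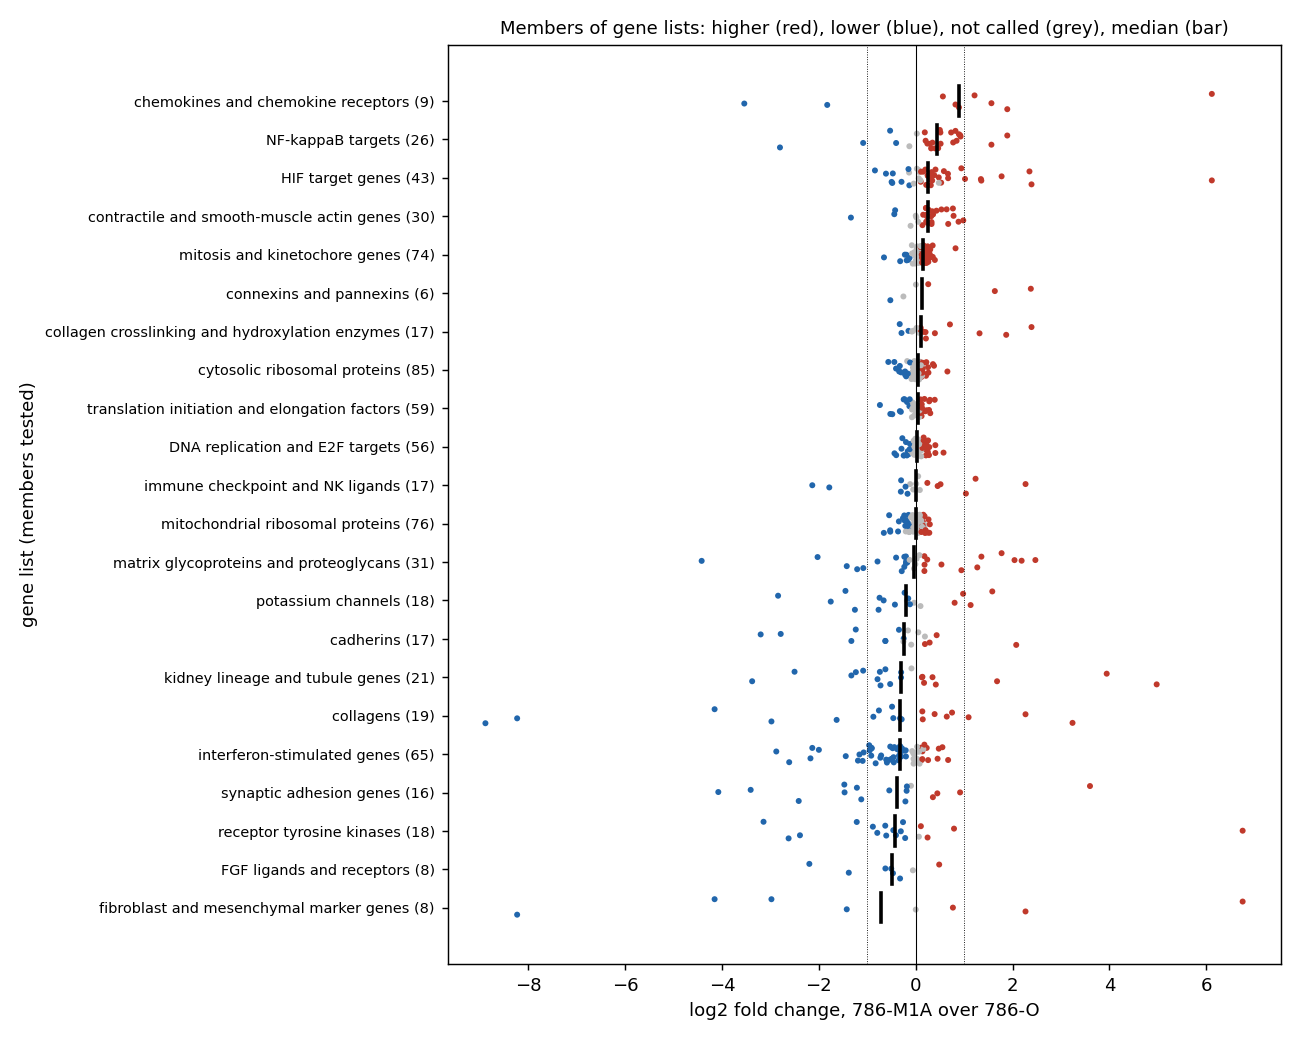
Log2 fold change of each tested member of 22 gene lists, ordered by the median (black bar), with members called higher in red, lower in blue and not called in grey, and the number tested in brackets. Dotted lines mark 2-fold, and the ribosomal, translation and cell division lists lie within them.

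All 19 collagens tested were called, against 56.8% of all genes, 8 higher and 11 lower, with a median log2 fold change of -0.32. At least 2-fold higher or lower were 3 and 5 (15.8% and 26.3%, against 1.85% and 3.47% of all genes). *COL1A1*, *COL3A1* and *COL5A1*, chains of the fibrillar collagens I, III and V, were lower in 786-M1A, as was the basement membrane collagen IV, while *COL6A3* of the microfibrillar collagen VI and *COL12A1* and *COL14A1*, which attach to fibrils, were higher.

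*COL1A1* (chromosome 17, 50184101 to 50201631), the larger part of collagen I, had 328, 282 and 260 CPM in 786-O and 17.7, 15.4 and 15.9 CPM in 786-M1A. The log2 fold change was -4.15 (SE 0.10, edgeR adjusted p = 1.68e-10). *COL5A1* was at 5.81, 4.83 and 4.40 CPM against 0.604, 0.673 and 0.630 CPM (log2 fold change -2.98, edgeR adjusted p = 2.49e-12), and *COL5A2* at 8.97 ± 0.0612 (SD, n = 3) against 2.89 ± 0.489 CPM. The ranges of the lines were far apart for each of these chains. *COL4A1* and *COL4A2*, the chains of the common collagen IV, fell from 724 ± 25.5 to 395 ± 6.95 CPM (log2 fold change -0.87) and from 807, 777 and 708 CPM to 625, 623 and 585 CPM (-0.32), and these smaller differences also passed the test. *COL3A1* fell from 164, 141 and 144 counts to 1, 0 and 0.

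*COL6A3* (chromosome 2, 237324018 to 237414164) had 376, 424 and 361 CPM in 786-O and 1655, 2031 and 1906 CPM in 786-M1A, which is 2.27 on the log2 scale (SE 0.083, edgeR adjusted p = 9.98e-09). It showed the second largest change of the collagens upward and, by the difference in CPM, was among the 5 genes with the largest gain. Its partner chains moved little, *COL6A2* by 0.15 and *COL6A1* by -0.29 on the log2 scale, both called. *COL12A1* was at 2.03 ± 0.113 CPM against 19.2 ± 2.20 CPM (SD, n = 3), and its log2 fold change was 3.24 (edgeR adjusted p = 2.75e-13). *COL14A1* had 1.20 ± 0.0832 CPM against 2.57 ± 0.258 CPM (1.09). With at least 10 counts required in each library, *COL4A5* and *COL3A1* leave the test and 3 of the collagens remain 2-fold lower.

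Among 31 glycoproteins and proteoglycans of the matrix, 12 were higher (38.7%) and 14 lower (45.2%), against 28.5% and 28.3% of all genes (median -0.03). At least 2-fold higher or lower were 6 and 5 (19.4% and 16.1%, against 1.85% and 3.47% of all genes). Fibronectin (*FN1*, chromosome 2, 215360865 to 215436068), which links cells to collagen, had 1656, 1735 and 1528 CPM in 786-O and 3441, 4432 and 4007 CPM in 786-M1A (log2 fold change 1.27, SE 0.12, edgeR adjusted p = 6.81e-05). Tenascin C (*TNC*) rose from 25.2, 24.6 and 22.6 CPM to 103, 119 and 107 CPM (2.19, edgeR adjusted p = 1.68e-12). The ranges of the lines did not overlap for either of them, as for 62.4% of all genes tested. Of the latent TGF-beta binding proteins, which hold the cytokine in the matrix, *LTBP1* rose from 2.94 ± 0.753 to 16.2 ± 1.95 CPM (2.47) and *LTBP4* from 32.5 ± 1.25 to 133 ± 4.92 CPM (2.04), whereas *LTBP3* fell (-0.40).

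The largest losses in this list were of *FREM2*, a basement membrane protein of the developing kidney, from 4.98 ± 0.382 to 0.230 ± 0.0207 CPM (log2 fold change -4.42), of *CCN3* (-2.02) and of lumican (*LUM*, -1.42). Fibrillin 1 (*FBN1*) fell from 64.5, 75.7 and 58.9 CPM to 24.7, 32.2 and 29.2 CPM (-1.21, edgeR adjusted p = 1.48e-04). Thrombospondin 1 (*THBS1*), an inhibitor of angiogenesis, was at 940, 971 and 892 CPM against 408, 486 and 432 CPM (-1.08, edgeR adjusted p = 1.22e-08), with the limit that *FSIP1* lies on the opposite strand at this place and whether strand was used in counting is not stated. The libraries did not overlap for either gene, as for 62.4% of all genes tested.

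Enzymes that modify and crosslink collagen were mostly higher (median 0.10). Of 17, 10 rose (58.8%, against 28.5% of all genes), 3 by at least 2-fold. Lower were 3 (17.6%, against 28.3% of all genes), none of them by 2-fold. Lysyl oxidase (*LOX*), which starts crosslinking, had 2.18, 2.80 and 2.80 CPM in 786-O and 13.9, 12.6 and 14.1 CPM in 786-M1A (log2 fold change 2.39, edgeR adjusted p = 1.35e-14). *LOXL1* rose from 4.42 ± 0.617 to 11.1 ± 1.57 CPM (1.32). Transglutaminase 2 (*TGM2*), which joins matrix proteins by another bond, rose from 333, 356 and 343 CPM to 1243, 1288 and 1236 CPM (1.87, edgeR adjusted p = 6.13e-19). The prolyl hydroxylase subunits *P4HA1* and *P4HA2* and the chaperone *FKBP10* fell by at most 0.33 on the log2 scale. *LOX* and *TGM2* share positions with *SRFBP1* and *RPRD1B* on the opposite strand.

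The fibroblast and mesenchymal list (8 tested) was the list with the lowest median (-0.71), and it split: *PDGFRB*, *COL6A3* and *ACTA2* were higher, *COL1A1*, *COL3A1*, *COL5A1* and *LUM* lower, and *TAGLN* was not called. *PDGFRB* (chromosome 5, 150113839 to 150155845), the receptor for platelet-derived growth factor B, had 2.98, 2.27 and 2.49 CPM in 786-O and 277, 280 and 283 CPM in 786-M1A. The log2 fold change of 6.75 (SE 0.071, edgeR adjusted p = 8.97e-24) was the largest rise of a gene with a symbol, and HK2 cells were at 5.04 ± 0.606 CPM. *COL6A3* and *ACTA2*, which lies opposite to *FAS*, rose by 2.27 and 0.77. Of the other fibroblast markers, *PDGFRA* had 0 counts and *COL1A2* and *DCN* had at most 4 per library in both lines.

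**Figure D4:**
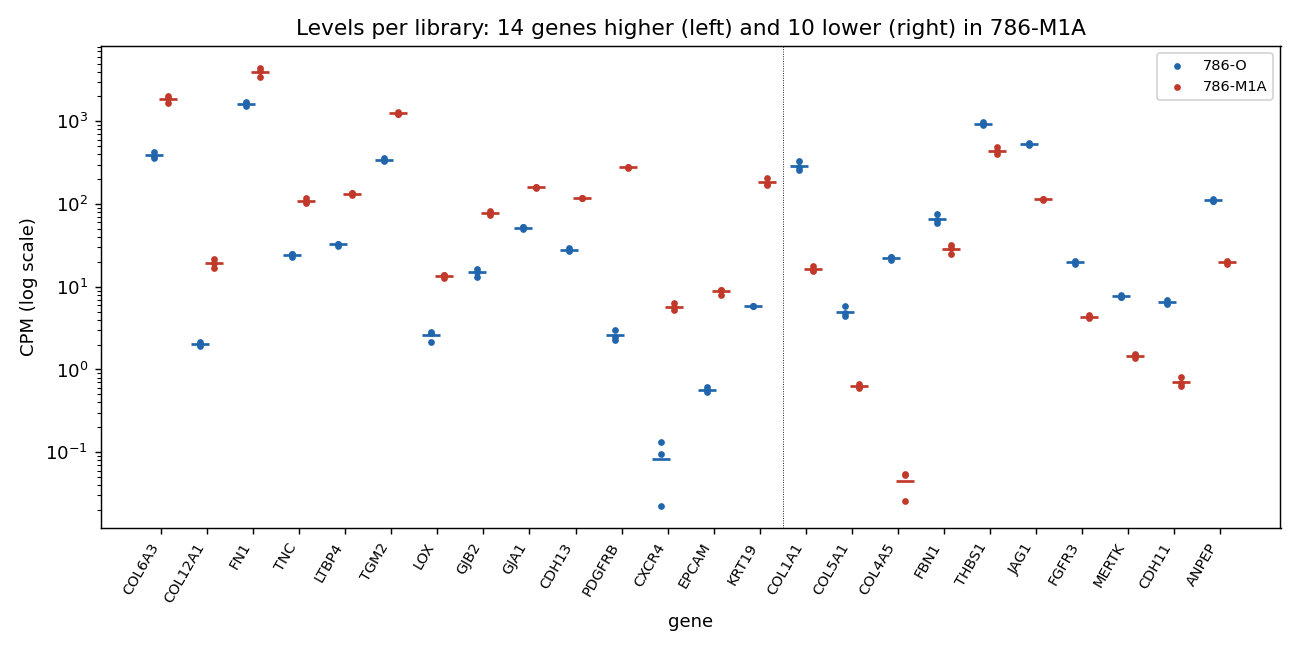
CPM per library, on a log scale, of 24 genes of the matrix, junctions, receptors and kidney lineage, with points for the libraries and bars for the means of 786-O (blue) and 786-M1A (red). The 14 genes on the left were higher and the 10 on the right lower in 786-M1A. The libraries of the lines overlap for none of these 24 genes, and did not overlap for 62.4% of all genes tested.

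Apart from the FGF receptors, which were counted with their ligands, 13 of the 18 receptor tyrosine kinases tested were lower and 4 higher (median -0.43). That is 72.2% and 22.2%, against 28.3% and 28.5% of all genes. Among these 18, *PDGFRB* was the only one at least 2-fold higher, and *EPHB1*, *ROS1*, *MERTK* and *NTRK3* were at least 2-fold lower. *EPHB1*, an ephrin receptor, had 6.17, 6.74 and 5.19 CPM in 786-O and 0.467, 0.906 and 0.656 CPM in 786-M1A (log2 fold change -3.14, edgeR adjusted p = 2.12e-12). *MERTK*, a receptor for the uptake of dying cells, fell from 7.69 ± 0.144 to 1.46 ± 0.0816 CPM (-2.39) and *ROS1* from 3.33 ± 0.484 to 0.538 ± 0.0833 CPM (-2.62). The more abundant receptors moved less: *EGFR* from 227, 233 and 222 CPM to 130, 165 and 152 CPM (-0.61, edgeR adjusted p = 0.00213), *AXL* from 552 ± 16.9 to 475 ± 11.1 CPM (-0.22) and *MET*, the receptor for hepatocyte growth factor, from 858 ± 19.8 to 1017 ± 63.8 CPM (0.25). The receptor-like kinase *STYK1* rose by 0.79.

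The FGF family (8 tested) had 6 members lower and 1 higher (median -0.49). The 4 kinase receptors all fell. *FGFR3* was at 20.8, 19.1 and 19.9 CPM in 786-O and at 4.15, 4.58 and 4.33 CPM in 786-M1A (log2 fold change -2.19, edgeR adjusted p = 7.40e-16), *FGFR2* fell by 1.38, and *FGFR1* and *FGFR4* had log2 fold changes of -0.50 and -0.47. The ligand *FGF5* rose from 16.2 ± 1.76 to 22.6 ± 2.75 CPM (0.49, edgeR adjusted p = 0.00104). The Notch ligand *JAG1* (chromosome 20, 10637684 to 10673999), which was named for its large loss in CPM, fell from 551, 536 and 524 CPM to 115, 113 and 115 CPM (-2.23, SE 0.039, edgeR adjusted p = 2.25e-20).

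Adhesion genes of the cadherin family (median -0.25) were lower for 8 of 17 (47.1%) and higher for 4 (23.5%), against 28.3% and 28.5% of all genes. Members went opposite ways: *CDH13*, a cadherin anchored in the membrane by a lipid, rose from 26.8, 29.7 and 27.6 CPM to 118, 117 and 119 CPM (log2 fold change 2.08, edgeR adjusted p = 3.27e-18), and *CDH11*, a mesenchymal cadherin, fell from 6.26, 6.45 and 6.84 CPM to 0.631, 0.802 and 0.682 CPM (-3.20, edgeR adjusted p = 6.64e-14). *FAT2*, *FAT1* and the kidney cadherin *CDH16* were also at least 2-fold lower (-2.79, -1.24 and -1.33). *CDH6*, the most abundant of the list in 786-O, fell from 407.5 ± 13.06 to 264.3 ± 9.955 CPM (-0.62). N-cadherin (*CDH2*), a standard marker of the mesenchymal state, rose slightly, from 331 ± 7.12 to 378 ± 16.2 CPM (0.19). The call of *CELSR3* (0.29, edgeR adjusted p = 0.0483) was lost in 7 of the alternatives.

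A family better known from synapses, the neurexins, latrophilins, teneurins and leucine-rich adhesion proteins that bind across cell contacts, had 11 of 16 members lower, 7 by at least 2-fold, and 4 higher (median -0.38). *ELFN1* had 10.8, 10.7 and 9.92 CPM in 786-O and 0.631, 0.518 and 0.708 CPM in 786-M1A (log2 fold change -4.07, edgeR adjusted p = 2.21e-16). *LRFN5* and *LRFN1* fell by 3.41 and 2.41. The latrophilin *ADGRL2* and the teneurins *TENM2* and *TENM3*, which bind each other across contacts, were the abundant members, at 217 ± 5.00, 202 ± 11.1 and 330 ± 20.6 CPM in 786-O and 78.2 ± 4.05, 87.0 ± 7.65 and 151 ± 11.4 CPM in 786-M1A (-1.47, -1.21 and -1.12). *SLITRK2* went the other way, from 2.65, 2.25 and 2.82 CPM to 31.2, 31.5 and 31.2 CPM (3.60, edgeR adjusted p = 2.33e-17), as did its neighbour *SLITRK4* (0.92). Both lie near the end of chromosome X, where most genes were higher. *TENM3* shares its position with *TENM3-AS1* on the opposite strand.

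Of 6 connexins and pannexins, the proteins of gap junctions and related channels, 3 were higher and 1 lower. *GJB2* was at 13.1, 16.4 and 15.3 CPM against 73.3, 77.1 and 81.4 CPM (log2 fold change 2.38, edgeR adjusted p = 3.88e-16), and *GJA1*, connexin 43, at 51.8 ± 1.63 CPM against 161 ± 2.86 CPM (1.63, edgeR adjusted p = 8.06e-18). *GJC1* fell by 0.52. The small rise of *PANX2* (0.26, edgeR adjusted p = 0.0440), whose libraries overlap, was lost in 4 of the alternatives. Potassium channel genes (median -0.20) were lower for 11 of 18 (61.1%) and higher for 4 (22.2%), against 28.3% and 28.5% of all genes. The inward rectifiers *KCNJ15* and *KCNJ16*, the second of which works in kidney tubules, fell from 20.1 ± 2.05 to 2.81 ± 0.426 CPM (-2.84) and from 33.1 ± 6.33 to 9.81 ± 0.508 CPM (-1.75), and *KCNIP3*, *KCNN4* and *KCNQ5* rose by 1.58, 1.13 and 0.98.

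Genes of kidney identity did not move as a group. Of 21 tested, 12 were lower (57.1%) and 8 higher (38.1%), against 28.3% and 28.5% of all genes. The median was -0.30, with 5 lower and 3 higher by at least 2-fold. *PAX8* moved little, from 164 ± 6.36 CPM in 786-O to 181 ± 8.44 CPM in 786-M1A (log2 fold change 0.14, edgeR adjusted p = 0.00801). *PAX2*, which acts in kidney development, fell from 25.9, 23.5 and 25.1 CPM to 11.9, 10.2 and 9.65 CPM (-1.23, edgeR adjusted p = 1.16e-10), and the brush border peptidase *ANPEP* from 115, 110 and 108 CPM to 20.1, 20.2 and 18.6 CPM (-2.50, edgeR adjusted p = 1.98e-19). *TFCP2L1*, a factor of the distal nephron and collecting duct, fell by 3.37.

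The epithelial genes *KRT19* and *EPCAM* rose. *KRT19* (chromosome 17, 41523617 to 41528308), a keratin of ducts, had 5.88, 5.81 and 5.92 CPM in 786-O and 207, 177 and 170 CPM in 786-M1A, a rise of 4.97 on the log2 scale (SE 0.078, edgeR adjusted p = 9.71e-18), and HK2 cells were at 106 CPM. *EPCAM*, an epithelial adhesion molecule, was at 0.538, 0.608 and 0.564 CPM against 9.22, 9.08 and 8.05 CPM (3.94, edgeR adjusted p = 3.32e-15), and at 74.8 CPM in HK2. The peptidase *MME* rose as well (1.68). All libraries of 786-M1A were above those of 786-O for these 3 genes, and libraries did not overlap for 62.4% of all genes tested. Some genes of epithelial junctions fell. Of 19 claudins and tight junction proteins 9 were lower and 5 higher, 4 and 0 of them by at least 2-fold, and of 13 desmosome and hemidesmosome genes 3 were lower and 3 higher, 2 and 0 by at least 2-fold. Lower and higher were 47.4% and 26.3% of the former and 23.1% each of the latter, against 28.3% and 28.5% of all genes. *CXADR*, a protein of tight junctions, fell by 4.81 on the log2 scale, and the desmosomal plaque proteins *PKP2* and *JUP* fell by 3.93 and 2.20.

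Of the 9 chemokines and chemokine receptors tested, 7 were higher and 2 lower, 4 and 2 of them by at least 2-fold, and the median of 0.89 was the highest of the lists. *CXCR4* (chromosome 2, 136114349 to 136118149) had 0.0224, 0.132 and 0.0940 CPM in 786-O and 6.37, 5.28 and 5.64 CPM in 786-M1A (log2 fold change 6.11, SE 0.24, edgeR adjusted p = 1.39e-14). *ACKR3*, which binds the same chemokine as *CXCR4*, rose from 11.3, 11.6 and 12.7 CPM to 27.1, 27.6 and 27.9 CPM (1.22, edgeR adjusted p = 1.07e-12). The neutrophil attractants *CXCL8* and *CXCL1* rose at low levels, from 0.751 ± 0.169 to 2.82 ± 0.312 CPM (1.89) and from 0.739 ± 0.0781 to 2.19 ± 0.223 CPM (1.56), and *CXCL5* from 25.5 ± 0.872 to 47.4 ± 2.30 CPM (0.89).

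*CCL5* and *CX3CL1*, which attract T cells and natural killer cells, went down. *CCL5* was at 5.85, 4.33 and 4.61 CPM in 786-O and at 0.439, 0.492 and 0.341 CPM in 786-M1A (log2 fold change -3.54, edgeR adjusted p = 1.27e-11), and *CX3CL1* at 8.34 ± 0.574 against 2.35 ± 0.258 CPM (-1.83). Among 17 immune checkpoint genes and natural killer ligands, 6 were higher and 6 lower (35.3% each, against 28.5% and 28.3% of all genes). The PD-1 ligands *CD274* and *PDCD1LG2* rose from 8.06 ± 1.23 to 16.5 ± 1.47 CPM (1.04) and from 2.86 ± 0.499 to 6.70 ± 0.858 CPM (1.24), and *TNFRSF14* rose by 2.27. *LGALS9* and *SIGLEC15* fell by 2.13 and 1.78, and the more abundant *CD276* by 0.31.

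The following 3 lists were singled out after their counts were seen. Interferon-stimulated genes (median -0.33) were lower for 41 of 65 (63.1%) and higher for 12 (18.5%), against 28.3% and 28.5% of all genes. By at least 2-fold, 10 were lower (15.4%, against 3.47% of all genes) and 0 higher. *IFI27* was at 20.7, 23.3 and 20.5 CPM in 786-O and at 3.43, 2.69 and 2.65 CPM in 786-M1A (log2 fold change -2.88, edgeR adjusted p = 1.21e-15), and *HERC5*, the ligase of the modifier ISG15, fell by 2.17. *IFI6* was at 73.9 ± 3.76 against 33.1 ± 4.30 CPM (-1.16) and *IFIT1*, which binds viral RNA, at 69.5 ± 3.13 against 36.8 ± 2.02 CPM (-0.92). Against this direction, *TNFSF10* rose by 0.67 and *APOL1* by 0.48.

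Targets of NF-kappaB (median 0.43) were higher for 20 of 26 (76.9%) and lower for 4 (15.4%), against 28.5% and 28.3% of all genes. The feedback inhibitor *NFKBIA* rose from 26.0, 24.3 and 25.3 CPM to 44.4, 43.6 and 41.3 CPM (log2 fold change 0.77, edgeR adjusted p = 1.05e-10). The subunit *RELB*, the apoptosis inhibitor *BIRC3* and the adhesion molecule *ICAM1* rose by 0.92, 0.93 and 0.73. *VCAM1*, another adhesion target, fell from 164 ± 6.98 to 77.6 ± 1.08 CPM (-1.08), and *PTGS2* from 1.84, 3.43 and 3.90 CPM to 0.247, 0.518 and 0.525 CPM (-2.80). Contractile and actin-binding genes were higher for 23 of 30 and lower for 3 (median 0.24), with 0 of the rises reaching 2-fold. The regulatory light chain *MYL9* rose from 98.1 ± 5.55 to 194 ± 5.83 CPM (0.98). Filamin A (*FLNA*) rose from 4738, 4750 and 4108 CPM to 7757, 8133 and 7494 CPM (0.78, edgeR adjusted p = 1.06e-05), vimentin (*VIM*) from 4823 ± 49.3 to 6494 ± 87.8 CPM (0.43), with *VIM-AS1* opposite to it, and *ACTG1* from 5661 ± 161 to 7277 ± 21.6 CPM (0.36). *MYH10* fell by 1.34 and *TPM1* by 0.42.

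HIF targets (median 0.25) were higher for 27 of 43 (62.8%) and lower for 8 (18.6%), against 28.5% and 28.3% of all genes. In this list 7 genes were at least 2-fold higher and 0 at least 2-fold lower. *VEGFA*, the main angiogenic factor of ccRCC, had 149, 167 and 169 CPM in 786-O and 325, 327 and 331 CPM in 786-M1A (log2 fold change 1.02, edgeR adjusted p = 4.44e-14). The HIF prolyl hydroxylase *EGLN3* rose from 49.8 ± 5.92 to 127 ± 3.28 CPM (1.35), and *STC2*, a secreted stanniocalcin, from 13.3, 12.2 and 11.7 CPM to 61.1, 66.4 and 62.2 CPM (2.35, edgeR adjusted p = 1.88e-18). *CXCR4* and *LOX* belong to this list too, and *CXCR4* passed the filter only through 786-M1A. The largest falls were of *STC1* (-0.84) and of the glycolytic regulators *PFKFB4* and *PFKFB3* (-0.61 and -0.50).

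The 12 largest rises among genes with a symbol included others that belong to no list described above. *GALNT5*, an enzyme that starts O-linked glycosylation, was at 0.628, 0.449 and 0.658 CPM in 786-O and at 30.3, 33.0 and 35.1 CPM in 786-M1A (log2 fold change 5.80, edgeR adjusted p = 4.22e-18), and had 0 CPM in HK2. *PRTFDC1* rose by 5.55, *DENND2D*, a regulator of RAB GTPases, by 4.78, *SP5*, a transcription factor induced by Wnt signals, by 4.78, *PHETA2* by 4.55, *PTGDS*, a prostaglandin synthase, by 4.49 and *LONRF3* by 4.45. The means of these 6 genes were between 3.90 and 8.23 CPM in 786-M1A and at most 0.298 CPM in 786-O. *PRUNE2* rose by 4.57 and lies opposite to *GCNT1*. The 12 rises were ranked among called genes whose libraries did not overlap between the lines, so the lack of overlap was fixed beforehand.

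Of the lists with at least 20 members tested, 13 had 0 members with a 2-fold difference, and the 5 longest of these cover basic cell functions. Of all genes tested, 28.5% were called higher and 28.3% lower. Cytosolic ribosomal proteins (85 tested) were higher for 25.9% and lower for 14.1%, and mitochondrial ones (76) for 21.1% each way. Translation factors (59) were higher for 32.2% and lower for 18.6%, and DNA replication genes (56) for 32.1% and 21.4%. In these 4 lists 40.0% to 53.6% of the members were called, below the 56.8% of all genes. Genes of mitosis and the kinetochore were higher for 49 of 74 and lower for 7 (median 0.16), or 66.2% and 9.46%, with *CENPU*, *CDC20* and *HMMR* at 0.82, 0.40 and 0.35 and *KIF23* and *TOP2A* at -0.65 and -0.32.

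On a few chromosomes, and in some stretches of others, fold changes were shifted together (plot by chromosome). The median was -0.32 on chromosome 15, where 284 of 401 genes were lower and 31 higher, and -0.18 on chromosome 17, where 382 of 716 were lower and 106 higher. It was 0.26 on chromosome 22, with 204 of 297 higher and 20 lower, and 0.16 on chromosome 9, with 277 of 513 higher and 78 lower. On chromosome 7, with a median of 0.12, 75.3% of the genes were called, 282 higher and 184 lower. The other chromosomes had medians between -0.05 and 0.09.

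**Figure D5:**
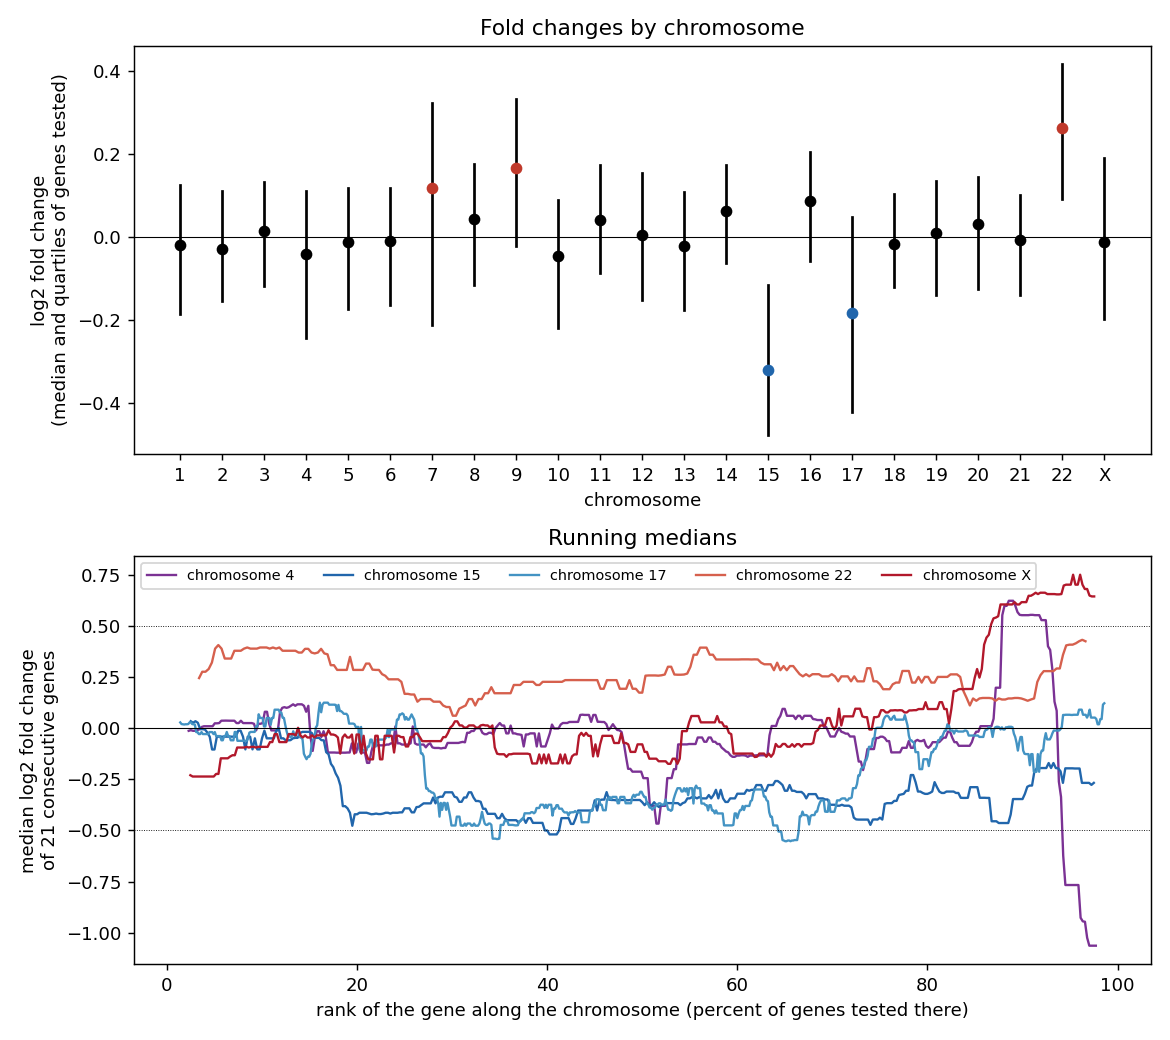
Above, median and quartiles of the log2 fold change of the genes tested on each chromosome (red above 0.1, blue below -0.1); below, running medians of 21 consecutive genes along 5 chromosomes against their rank. Chromosome 15 lies below 0 over most of its length, and the ends of chromosomes 4 and X pass the dotted lines at 0.5 and -0.5.

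Stretches in which the median of 21 consecutive tested genes reached 0.5 in size were found on chromosomes 4, 15, 17 and X (GRCh38). On X, from 136665550 to 155943769, 57 of 65 genes were higher and 4 lower, with a median of 0.62 against -0.05 for the rest of the chromosome. *FLNA*, *RPL10* and *IRAK1* lie in it, and *AFF2*, lost in 786-M1A, and *MTMR1* (log2 fold change -0.97) are exceptions. On chromosome 4 a stretch from 155924118 to 177442437 had a median of 0.53 (26 of 41 higher), and one overlapping it, from 170060222 to 189963192, had a median of -0.73, with 23 of 36 lower and 14 of them by at least 2-fold. In the second stretch lie *FAT1* and *TLR3*, a sensor of double-stranded RNA that fell from 13.4, 14.2 and 15.2 CPM to 3.24, 3.70 and 3.41 CPM (-2.05, edgeR adjusted p = 2.39e-14), but also *ACSL1* and *CENPU*, which rose by 1.60 and 0.82. The stretch on chromosome 15 (51971825 to 58933679, median -0.50) holds *UNC13C* and *WDR72*, both nearly absent from 786-M1A, and those on chromosome 17 (30477408 to 35010872 and 48612346 to 54961956) had medians of -0.51 and -0.48.

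The lists were set beside these positions after both had been seen. Of all genes tested on chromosomes 15 and 17, 666 of 1117 were lower and 137 higher, and of those on chromosomes 9 and 22, 98 of 810 were lower and 481 higher. Of the 10 cytosolic ribosomal protein genes on chromosomes 15 and 17, 8 were lower and 1 higher, led by *RPL23A*, *RPL27* and *RPL19* on chromosome 17 (log2 fold changes -0.56, -0.44 and -0.41). All 5 on chromosomes 9 and 22 were higher, as was *RPL10* on X (0.65), which lies opposite to *DNASE1L1*, and of the 69 elsewhere 15 were higher and 4 lower. Of the 10147 genes tested that were not placed on these chromosomes or the end of X, 2781 were higher and 2665 lower. The stretches on chromosome 4 and the genes of chromosome 7 were not set apart, so the counts outside still include them. Of the 62 mitosis genes outside these chromosomes 43 were higher and 2 lower, and of the 53 interferon-stimulated genes outside them 32 were lower and 10 higher. The 28 matrix glycoproteins and 16 collagens elsewhere had 5 and 3 genes at least 2-fold higher and 3 and 3 at least 2-fold lower. Copy number was not analysed here.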

How the data were processed

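RNA of 9 cultures was sequenced from TruSeq Stranded mRNA libraries on a NextSeq sequencer, and the authors deposited raw counts per NCBI gene, made with the Rsubread package (featureCounts per the labels) on hg38. The annotation release and the strand setting are not given in the sources used here. RefSeq symbols matched 27745 of 28395 identifiers, gene positions came from RefSeq, and overlaps between genes came from GENCODE 44 exons. Genes that averaged 50 counts or more across the 6 libraries were tested with edgeR 4.0.16 (robust quasi-likelihood, TMM, all 9 libraries in a single fit with a coefficient per line, R 4.3.3) and adjusted by Benjamini-Hochberg. Called means an adjusted p-value under 0.05, and 2-fold means called with a log2 fold change of at least 1 in size. CPM values use TMM-scaled totals, and folds against 0 use a floor of 3 counts per library, which covers counting error only. All columns of counts were mapped to a sample. The procedure was tested on simulated data.

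The members and the gene lists were chosen with earlier results of these data known. Lists, by symbol pattern or written out, were ranked when at least 5 members were tested. Those described had the largest shares of 2-fold lower or 2-fold higher members (8 each) or the smallest share of either (5, from at least 20 members, ties by length). Genes named were the 12 largest rises and falls without overlap between libraries, up to 3 each way per list, up to 8 present in a single line, and the 5 largest changes in CPM each way, all among genes with a symbol. Any other gene was named after its values were seen, and a few genes that the rule names are left out here. Alternatives were DESeq2 1.42.0, RLE and upper-quartile scaling, no filter, at least 10 counts in each library, the 6 libraries alone, limma 3.58.1 on log2 CPM, a fit blocked on the replicate number, and fits that each left out a library. The deviations of same-numbered libraries of the 2 lines from their line means correlated across genes at 0.308, 0.153 and 0.154. Differently numbered libraries were not compared, so a pairing by the replicate numbers in the labels was not established. The values in the Results come from the fit without such a pairing. No pair of libraries agreed within sampling noise (chi-square of 3.13 to 8.74 per gene). The other steps used Python 3.11.15, pandas 2.3.3, numpy 2.4.6 and matplotlib 3.10.9.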

Additional observations from a re-analysis of the deposited data

How the results depend on the processing

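Across the 14 alternatives, no shared call changed direction, and the counts of genes called, called higher and called lower stayed within 1.5 times of the values reported. Blocking on the replicate number, which treats same-numbered cultures as pairs, gave 6928 genes called, with 225 and 421 genes at least 2-fold higher and lower. It changed no call of the genes that the rule names. Leaving out a library in turn gave 6110 to 6482 genes called, 214 to 236 at least 2-fold higher and 390 to 454 at least 2-fold lower. DESeq2 called 6533 genes and limma 6794. The exception was the filter: without one, 19962 genes were tested and 470 and 1127 were at least 2-fold higher and lower. Of the 132 genes that the rule names, *CELSR3* and *PANX2* lost their call in some setting and none changed sign. The calls of the other genes named in the text were not followed one by one across the settings. Of 1232 list counts, 1227 stayed within 1.5 times. Without 786-M1A replicate 1, 2 synaptic adhesion genes were at least 2-fold higher and 2 connexins lower, without 786-O replicate 1 a contractile gene reached 2-fold, and with at least 10 counts in each library 3 collagens and 1 NF-kappaB target were at least 2-fold lower. The log2 fold changes of genes with few reads in either line depend on the prior count, and copy number, methylation and protein were not analysed here.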
